A study of Mus musculus with 24 samples.

Results

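The genes described here make and sense prostaglandins: the cyclooxygenases Ptgs1 and Ptgs2, the terminal synthases Ptges, Ptgis and Ptgds, the prostaglandin E2 receptors Ptger1, Ptger2, Ptger3 and Ptger4, and the prostaglandin F receptor Ptgfr. They were chosen by name, and a gene was kept where the deposited table had a row for its symbol. This gave 8 of the 10 genes, out of 22180 genes with a row. Ptgs1 and Ptger1 are not analysed here. All 8 passed the filter on low values that left 14892 genes to test. The cells were primary osteoblasts, which lay down bone, taken by enzyme digestion from the calvaria (skull vault) of C57BL/6J pups at 7 to 10 days of age and plated at passage 2. The groups were labelled wild type or β-arrestin 2 knockout (on the same background), and cells of each genotype were harvested on days 2, 5, 10 and 28 of culture. The day 2 cells were in growth medium. From day 3 the cells received differentiation medium, which added ascorbic acid at 50 mg/L and β-glycerophosphate at 5 mM, so days 5, 10 and 28 differ from day 2 in both medium and time. There were 8 groups of 3 arrays, 24 in all, and the design text describes the 3 replicates of a time point as independent cell preparations. Cells of several types can be present in such digests, and neither the number of pups per preparation nor the deleted part of Arrb2 is stated in the labels.

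Prostaglandins are short-lived lipid mediators. A phospholipase frees arachidonic acid from membranes, a cyclooxygenase turns it into the unstable prostaglandin H2, and terminal synthases convert that into the individual prostanoids, which leave the cell and act on G protein-coupled receptors nearby. In bone, prostaglandin E2 made by osteoblasts through the inducible cyclooxygenase Ptgs2 is known as a regulator of both bone formation and resorption. Its receptors differ in coupling: those encoded by Ptger2 and Ptger4 raise cAMP, that of Ptger3 mostly lowers it, and that of Ptgfr, which binds prostaglandin F2α, signals through phospholipase C and calcium. β-Arrestin 2, encoded by Arrb2, binds activated receptors of this class and ends their signalling to G proteins.

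The promoter sequences of the genes with the largest changes are shown because Ptgs2 and these receptors moved in opposite directions in the results. They are from RefSeq on build GRCm38.p6, which had a promoter for 7 of the 8 genes, and each is the 250 bases before the start of the gene as given in that promoter table, 5′ to 3′ on the gene's own strand. A set of 6 motifs was searched on both strands in these bases and the 50 that follow: the TATA box TATAAA, the CCAAT box, the core of the cAMP response element TGACG, the AP-1 motif TGANTCA, the Runx motif TGTGGT and the E-box CACGTG. Capitals mark a motif.
Ptgs2, chr1:150099781-150100030, plus strand: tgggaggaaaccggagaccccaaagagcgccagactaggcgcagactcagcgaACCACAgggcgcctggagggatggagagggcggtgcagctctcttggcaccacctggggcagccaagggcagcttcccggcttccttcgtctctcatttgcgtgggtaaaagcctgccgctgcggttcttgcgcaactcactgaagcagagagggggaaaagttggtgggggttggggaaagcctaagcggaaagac
Ptgs2, 27 bases just after the start, chr1:150100035-150100061, plus strand: tcaccactaCGTCACGTGgagtccgct
Ptger3, chr3:157566626-157566875, plus strand: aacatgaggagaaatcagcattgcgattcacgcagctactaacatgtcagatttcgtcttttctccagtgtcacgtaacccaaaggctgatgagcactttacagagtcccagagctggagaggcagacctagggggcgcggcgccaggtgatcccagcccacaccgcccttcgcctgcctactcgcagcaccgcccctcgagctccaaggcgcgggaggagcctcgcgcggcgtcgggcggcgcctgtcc
Ptger4, chr15:5244188-5244437, minus strand: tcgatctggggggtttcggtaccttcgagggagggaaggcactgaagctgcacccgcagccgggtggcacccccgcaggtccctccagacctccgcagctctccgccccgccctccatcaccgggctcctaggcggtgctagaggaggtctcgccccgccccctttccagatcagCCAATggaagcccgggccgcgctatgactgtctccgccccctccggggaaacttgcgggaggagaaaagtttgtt
Ptgfr, chr3:151837529-151837778, minus strand: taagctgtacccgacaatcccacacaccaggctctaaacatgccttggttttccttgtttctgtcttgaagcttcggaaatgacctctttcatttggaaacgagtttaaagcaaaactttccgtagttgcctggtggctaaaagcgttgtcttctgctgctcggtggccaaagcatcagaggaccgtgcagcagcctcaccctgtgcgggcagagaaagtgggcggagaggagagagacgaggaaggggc

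The Ptgs2 promoter held TGTGGT on the opposite strand, from base -197 to base -192 relative to the start. Just after the start lay TGACG, on the opposite strand from base 14 to base 18, which overlaps CACGTG from base 17 to base 22. The Ptger4 promoter held CCAAT from base -75 to base -71. In the other promoters searched, that of Ptger2 held CCAAT and that of Ptgds TGANTCA, while none of the 6 motifs was found in the windows of Ptges, Ptger3 and Ptgfr. Among all 32851 promoters of 300 bases in the table, 16.8% held TGTGGT, 20.8% TGACG, 7.15% CACGTG, 37.4% CCAAT, 7.81% TGANTCA and 13.6% TATAAA. A match is a description of these letters, and no binding was measured.

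The targeted gene was examined first, and its signal did not bear out the labels. Arrb2 read between 5.00 and 6.81 in the 12 arrays labelled wild type and between 6.44 and 7.42 in the 12 labelled knockout (log2 RMA values, the unit used throughout). It was called higher in the labelled knockout on day 2 (7.09 ± 0.29 against 5.88 ± 0.13, SD, n = 3 each, limma adjusted p = 0.0206) and on day 5 (adjusted p = 0.000357), but not on days 10 and 28. Omitting any 1 of the labelled wild-type arrays, or replicate 2 of the labelled knockout, ended the day 2 call (limma adjusted p = 0.0873 to 0.175), as did fitting those groups alone (adjusted p = 0.999825). On day 10 the difference of 0.82 was called without replicate 3 of the labelled wild type (adjusted p = 0.0367). Probes outside a deleted part check nothing, so genotypes are named below as labelled. Markers of other cells also moved with time. From day 2 to day 28, 19.6% of all tested genes rose and 19.2% fell in the labelled wild type. In the labelled knockout 19.4% rose and 18.6% fell. By day 28 against day 2, 14 of 15 macrophage markers rose in each labelled genotype, and the mean of that list went from 4.78 to 5.52 over the day 2 arrays to 7.91 to 8.90 (labelled wild type) and 7.07 to 10.28 (labelled knockout) over those of day 28. All 11 adipocyte markers with a row rose in the labelled wild type and 10 of 11 in the labelled knockout, with list means of 9.40 to 9.67 and 8.07 to 8.42 on day 28 after 4.81 to 5.25 on day 2. Of 10 osteoblast markers, 3 rose and 1 fell in the labelled wild type and 7 rose in the labelled knockout. Spp1 and Runx2 are not analysed here. All 11 cell division genes fell in both. Of 7 smooth muscle markers 1 rose and 5 fell in both, and of 6 tested meningeal fibroblast markers 3 rose in both and 1 fell in the labelled wild type. Of 5 tested endothelial markers, 1 rose and 2 fell in the labelled wild type and 1 rose in the labelled knockout. Of 8 mast cell markers, 7 or 8 lay below the array median on every array. RMA values have no true zero, so no marker is listed at 0.

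Ptgs2 fell steeply over the culture, and the 3 receptor genes Ptger3, Ptger4 and Ptgfr rose. The terminal synthases Ptges, Ptgis and Ptgds did not pass the test at any time, though each was called in some alternative fit given at the end. A gene is called changed at a Benjamini-Hochberg adjusted p under 0.05 over all 14892 tested genes, in a limma fit on all 24 arrays. From day 2 to day 5, 1 of the 8 genes rose in the labelled wild type, where 5.55% of all tested genes were called (2.85% rose and 2.69% fell), and 0 were called in the labelled knockout, where 2.77% were (1.54% and 1.23%; 1 of the 8 and 2245 of all 14892 genes had an unadjusted p under 0.05). From day 2 to day 10, 3 rose and 1 fell in the labelled wild type (30.7% of all tested genes were called, 14.4% up and 16.2% down). In the labelled knockout 1 rose and 1 fell (24.6%, 11.1% up and 13.6% down). From day 2 to day 28, 3 rose and 1 fell in the labelled wild type (38.8%, 19.6% up and 19.2% down). In the labelled knockout 4 rose and 1 fell (38%, 19.4% up and 18.6% down), but 1 of the 4, Ptger2, entered the test only through arrays of that day 28 group. The median change of the 8 genes from day 2 to day 28 was 0.52 in the labelled wild type and 0.79 in the labelled knockout, where the median over all tested genes was -0.03 and -0.02. Comparisons with day 2 share the day 2 arrays of their genotype.

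**Figure D1:**
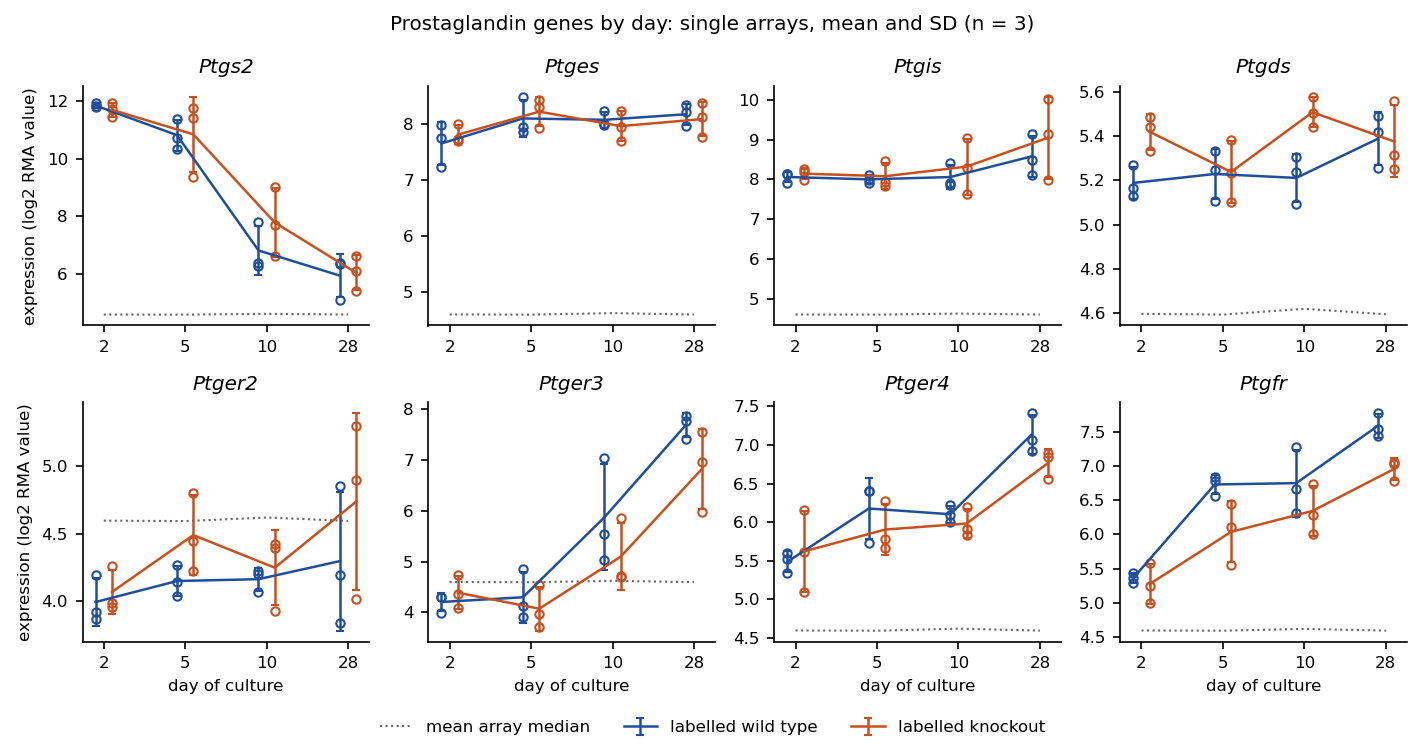
Log2 RMA values of the 8 prostaglandin genes by day of culture; points are single arrays (3 per group) and lines join the group means with SD bars, in blue for labelled wild type and orange for labelled knockout; the dotted line is the mean array median. Ptgs2 drops most between days 5 and 10, Ptger3, Ptger4 and Ptgfr climb to day 28, and the scale of each panel is its own, so levels of different genes are not comparable.

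Ptgs2, the inducible cyclooxygenase, lies on chromosome 1 (GRCm38.p6, chr1:150100031-150108234, plus strand). Labelled wild-type arrays read 11.82, 11.93 and 11.80 on day 2 (replicates 1, 2 and 3), 10.35, 10.72 and 11.40 on day 5, 6.26, 6.40 and 7.80 on day 10, and 6.39, 6.35 and 5.10 on day 28. Labelled knockout arrays read 11.74, 11.43 and 11.93, then 11.78, 11.41 and 9.36, then 9.02, 6.64 and 7.71, and finally 6.63, 6.10 and 5.41. Every array of days 10 and 28 lay below every array of days 2 and 5 in its genotype, and the widest spreads were on days 5 and 10 of the labelled knockout (SD 1.30 and 1.19). From day 2 to day 10 the log2 difference was -5.03 in the labelled wild type (95% interval -6.26 to -3.80, 32.7-fold, limma adjusted p = 3.79e-06) and -3.91 in the labelled knockout (-5.14 to -2.68, adjusted p = 9.66e-05). By day 28 it was -5.90 (-7.13 to -4.68, 59.9-fold, adjusted p = 2.72e-07) and -5.66 (-6.88 to -4.43, 50.4-fold, adjusted p = 7.12e-07). In these bulk samples, fewer cells that express a gene and less RNA per cell cannot be told apart.

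The largest step in the fall of Ptgs2 was between days 5 and 10. Day 5 did not differ past the threshold from day 2 (-1.03, 95% interval -2.26 to 0.20, and -0.85, -2.08 to 0.38), and day 28 not from day 10 (-0.88, -2.10 to 0.35, and -1.75, -2.97 to -0.52, limma adjusted p = 0.652 and 0.136). Labelled wild-type arrays of day 5 (10.35 to 11.40) still lay below all of day 2 (11.80 to 11.93). Labelled knockout arrays of day 28 (5.41 to 6.63) lay just below all of day 10 (6.64 to 9.02). Smaller falls before day 5 and after day 10 are thus not excluded. Day 10 was lower than day 5 by -4.00 in the labelled wild type (adjusted p = 0.000207) and by -3.06 in the labelled knockout (adjusted p = 0.00564). Of these calls, that of the labelled knockout was lost without replicate 1 of its day 5 group (-2.60, adjusted p = 0.0581). Without replicate 2 of its day 10 group, the difference between days 10 and 28 was instead called (-2.32, adjusted p = 0.0427). Of 11 cell division genes, 10 fell from day 2 to day 10 in the labelled wild type and 6 in the labelled knockout. Among all tested genes 16.2% and 13.6% fell. Their list mean was 8.45 to 9.47 on day 2 and 7.59 to 8.10 on day 10, and their part in the Ptgs2 values was not tested.

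**Figure D2:**
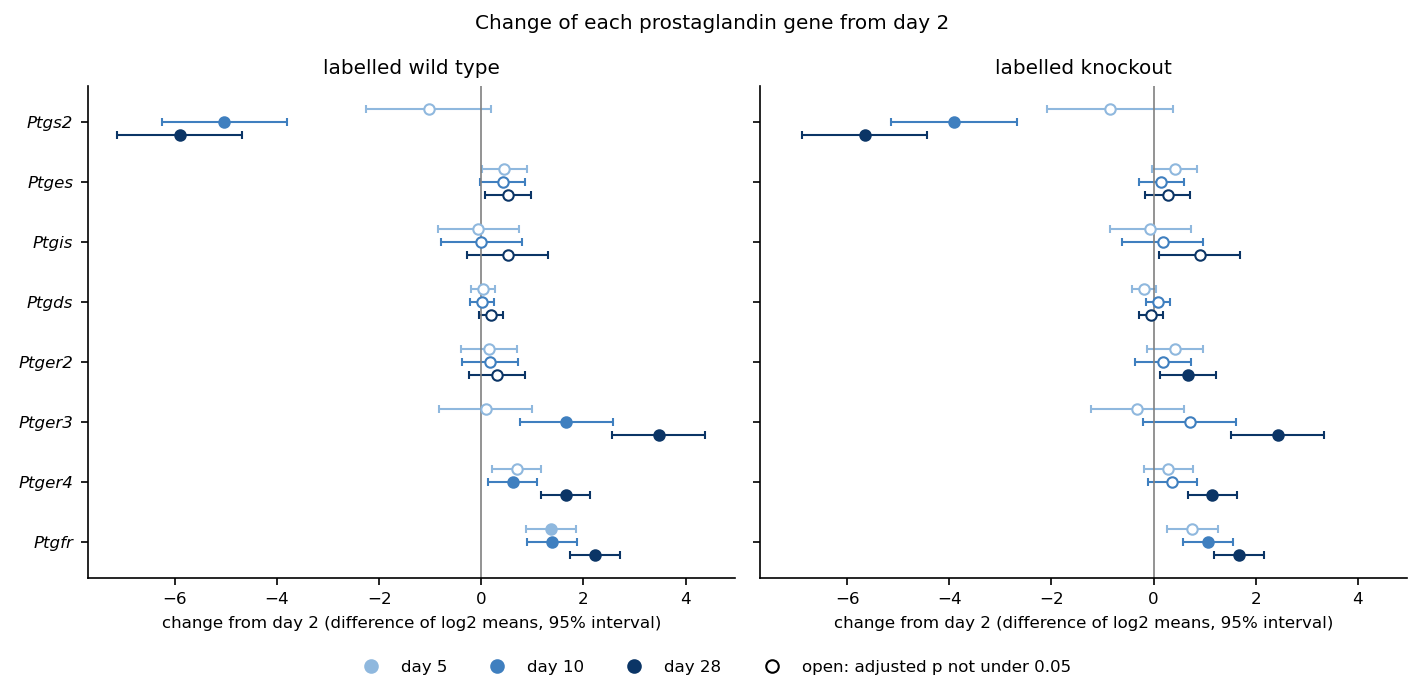
Change of each gene from day 2 to days 5, 10 and 28 in labelled wild type (left) and labelled knockout (right), as the difference of log2 means with its 95% interval from limma; filled points have an adjusted p under 0.05 and open points do not. Ptgs2 is far below 0 from day 10 (-5.03 and -3.91), and Ptgfr, Ptger4 and Ptger3 are above 0 by day 28 in both.

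The gene whose level followed that of Ptgs2 most closely over the 24 arrays was Ptgs2os, a long non-coding RNA gene on the opposite strand next to it (chr1:150074873-150099874, minus strand). The annotated genes do not overlap, and their starts lie 157 bases apart, so the Ptgs2 promoter printed above spans the gap and reaches into Ptgs2os. Ptgs2os read 6.52, 6.19 and 6.12 on day 2 of the labelled wild type, 5.71, 5.34 and 5.77 on day 5, 4.55, 4.44 and 4.75 on day 10, and 4.53, 4.35 and 3.98 on day 28. In the labelled knockout it read 6.02, 5.89 and 6.02, then 6.19, 6.00 and 5.29, then 5.34, 4.56 and 4.70, and then 4.41, 4.29 and 4.25. The replicate of the labelled knockout with the lowest Ptgs2 on day 5, replicate 3, also had the lowest Ptgs2os there, and the one with the highest Ptgs2 on day 10, replicate 1, the highest Ptgs2os. By day 28 Ptgs2os had changed by -1.99 and -1.66, a direction that follows from its choice by likeness to Ptgs2 on the same arrays. All day 28 arrays lay below their array medians, so the sizes of these changes are uncertain. Pearson's r with Ptgs2 was 0.98 over the 24 arrays (Spearman's rho 0.97) and 0.85 after group means were removed. It is a description over arrays that share preparations and days, and the positions of the probes were not used here.

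**Figure D3:**
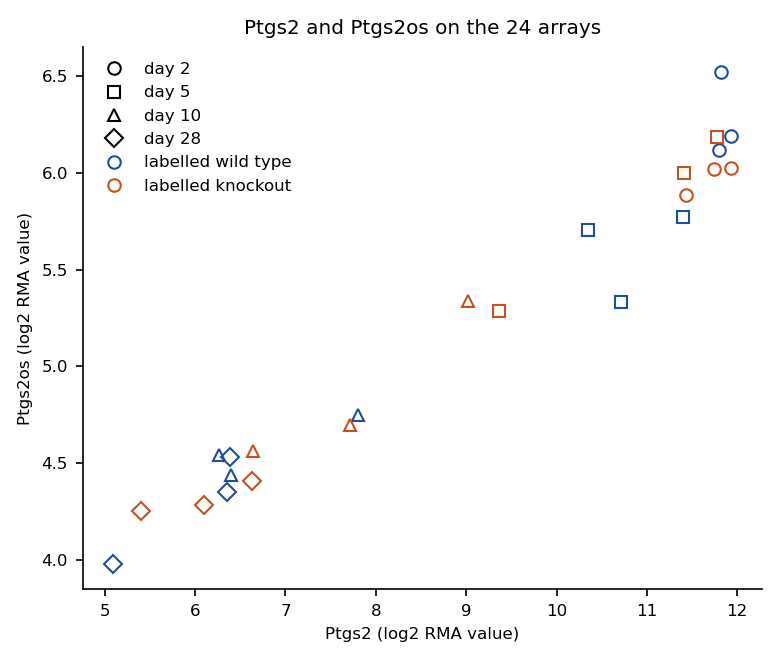
Log2 RMA value of Ptgs2os against that of Ptgs2 in each of the 24 arrays, coloured by labelled genotype and shaped by day. The arrays of days 2 and 5 sit at the upper right and those of days 10 and 28 at the lower left, with labelled knockout replicates of days 5 and 10 between them.

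The other genes most like Ptgs2 over the 24 arrays, each at r = 0.98, were Uck2, a uridine-cytidine kinase of pyrimidine salvage, Kctd5, and Ankrd1, an ankyrin repeat protein known as a target of YAP signalling. They were picked for this likeness on the same arrays, so a fall by day 28 follows from the choice and is no separate result. Its size was -1.86, -1.31 and -3.59 in the labelled wild type and -2.07, -1.38 and -3.40 in the labelled knockout.

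Ptges encodes the microsomal synthase that makes prostaglandin E2 from the product of Ptgs2. It read 7.98, 7.76 and 7.23 on day 2 of the labelled wild type, against 8.49, 7.86 and 7.96 on day 5, 8.24, 8.01 and 7.99 on day 10 and 8.22, 8.34 and 7.97 on day 28. The labelled knockout read 8.01, 7.70 and 7.73, then 8.43, 8.31 and 7.93, then 8.24, 7.95 and 7.70, and 8.39, 8.12 and 7.77. The day 2 arrays of the labelled wild type were low, mainly in replicate 3, and most groups overlapped. The difference from day 2 to day 28 was 0.52 (95% interval 0.08 to 0.96, limma adjusted p = 0.0571) in the labelled wild type and 0.28 (-0.16 to 0.72) in the labelled knockout. Without replicate 1 of day 2 the first of these passed (adjusted p = 0.0258), and so it did without replicate 3 of day 28 (adjusted p = 0.0498).

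Ptgis, which encodes prostacyclin synthase, spread most on day 28. The labelled wild type read 7.92, 8.14 and 8.13 on day 2, 7.91, 7.99 and 8.11 on day 5, 7.91, 7.86 and 8.41 on day 10 and 8.50, 8.11 and 9.14 on day 28. The labelled knockout read 8.18, 7.99 and 8.27, then 7.95, 7.84 and 8.45, then 8.29, 7.63 and 9.05, and then 9.15, 7.98 and 10.03. Replicate 3 was the highest and replicate 2 the lowest of its group on days 10 and 28 in both labelled genotypes. The mean of the 10 osteoblast markers with a row had the same order on day 28 and on day 10 of the labelled knockout (8.32, 8.13 and 9.57), but on day 10 of the labelled wild type it was lowest in replicate 1 (7.92, 8.28 and 8.75). On day 28 it was 9.09, 7.999 and 10.06 in the labelled wild type and 9.99, 8.56 and 10.57 in the labelled knockout, and its part in the Ptgis values was not tested. From day 2 to day 28 Ptgis differed by 0.52 (95% interval -0.27 to 1.31) in the labelled wild type and by 0.90 (0.11 to 1.70, limma adjusted p = 0.0669) in the labelled knockout. With the replicate number as a block the latter was called (adjusted p = 0.00687). It was also called without replicate 2 of day 28 (1.44, adjusted p = 0.00253).

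Ptgds, the lipocalin-type prostaglandin D synthase, was nearly level. Its 24 values lay between 5.09 and 5.58, above the array median on every array. By day 28 it differed from day 2 by 0.20 (95% interval -0.04 to 0.43) in the labelled wild type and by -0.04 (-0.28 to 0.19) in the labelled knockout.

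Ptgfr, the prostaglandin F receptor gene, rose in both labelled genotypes and was called from day 5 in the labelled wild type; the timing of the receptor genes was not compared by a test. Labelled wild-type arrays read 5.43, 5.36 and 5.30 on day 2, 6.57, 6.78 and 6.84 on day 5, 6.31, 6.66 and 7.28 on day 10, and 7.44, 7.77 and 7.54 on day 28. Labelled knockout arrays read 5.25, 5.58 and 5.00, then 5.56, 6.44 and 6.11, then 6.74, 6.28 and 6.01, and then 7.03, 6.77 and 7.05. Every later array of the labelled wild type stood above all of day 2, whereas on day 5 of the labelled knockout replicate 1 still lay within the day 2 range. The difference from day 2 was 1.37 on day 5 (95% interval 0.88 to 1.86, 2.58-fold, limma adjusted p = 0.00165), 1.38 on day 10 and 2.22 on day 28 (1.73 to 2.71, 4.65-fold, adjusted p = 5.48e-07) in the labelled wild type. It was 0.76 on day 5 (0.27 to 1.25, adjusted p = 0.0943), 1.07 on day 10 (adjusted p = 0.00251) and 1.68 on day 28 (1.19 to 2.17, 3.20-fold, adjusted p = 1.74e-05) in the labelled knockout. Without replicate 1 of its day 5 group the day 5 rise passed there too (1.00, adjusted p = 0.0288). Day 5 and day 10 did not differ past the threshold in either (0.02 and 0.31), while day 28 was above day 5 by 0.85 (adjusted p = 0.0118) and 0.92 (adjusted p = 0.00720). The second of these was lost without the same array (0.68, adjusted p = 0.0602). The difference between days 10 and 28 was 0.83 (adjusted p = 0.116) and 0.61 (adjusted p = 0.190), and the first was called without replicate 3 of day 10 (1.10, adjusted p = 0.0373).

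Ptger4, which encodes the cAMP-raising EP4 receptor, rose mainly between days 10 and 28. It read 5.34, 5.60 and 5.52 on day 2 of the labelled wild type, 5.72, 6.40 and 6.41 on day 5, 6.00, 6.22 and 6.09 on day 10, and 7.07, 7.41 and 6.93 on day 28. The labelled knockout read 5.10, 6.15 and 5.61, then 5.66, 6.27 and 5.78, then 5.84, 6.20 and 5.91, and then 6.55, 6.90 and 6.84. The day 28 arrays stood above all earlier arrays of their genotype. By day 28 the difference from day 2 was 1.65 (95% interval 1.17 to 2.13, 3.14-fold, limma adjusted p = 1.30e-05) and 1.15 (0.67 to 1.63, 2.21-fold, adjusted p = 0.000572). From day 10 to day 28 it was 1.03 (adjusted p = 0.0306) and 0.78 (adjusted p = 0.0895, and 0.00919 with the replicate number as a block). The first of these ended when day 10 replicate 1 or 3, or day 28 replicate 1 or 2, was omitted (adjusted p = 0.0816 to 0.155). A rise of 0.62 by day 10 of the labelled wild type barely passed (adjusted p = 0.0480) and survived none of the 6 omissions of a single array (adjusted p = 0.0654 to 0.138). The day 5 difference of 0.69 there did not pass (adjusted p = 0.0892). It was called with the replicate number as a block (adjusted p = 0.00969) and without replicate 1 of day 5 (0.92, adjusted p = 0.0438). The difference between days 5 and 28 was 0.96 (adjusted p = 0.00482) and 0.86 (adjusted p = 0.00930), of which the second was lost without replicate 1 of day 5 (adjusted p = 0.0545).

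Ptger3, the EP3 receptor that mostly opposes cAMP formation, had the largest rise of the 8 genes. Labelled wild-type arrays read 4.31, 3.997 and 4.31 on day 2, 3.90, 4.86 and 4.13 on day 5, 5.54, 7.03 and 5.03 on day 10, and 7.86, 7.77 and 7.42 on day 28. Labelled knockout arrays read 4.73, 4.36 and 4.08, then 3.70, 3.97 and 4.55, then 4.70, 5.86 and 4.73, and then 6.96, 7.54 and 5.97. The day 28 arrays were the highest of each genotype, and on day 10 replicate 2 stood above the other two in both. All 3 day 2 arrays of the labelled wild type lay below their array medians (4.55 to 4.72 over the 24 arrays), as did 2 of 3 in the labelled knockout, so the size of the rise is uncertain. By day 28 the difference from day 2 was 3.48 (95% interval 2.57 to 4.39, 11.1-fold, limma adjusted p = 3.94e-06) and 2.43 (1.52 to 3.35, 5.41-fold, adjusted p = 0.000200). On day 10 it was 1.66 (adjusted p = 0.00639) in the labelled wild type, which ended when its replicate 2 was omitted (1.08, adjusted p = 0.0558), and 0.71 (-0.20 to 1.62, adjusted p = 0.259) in the labelled knockout. The step from day 10 to day 28 was 1.81 (adjusted p = 0.0482) and 1.73 (adjusted p = 0.0495). The first of these calls ended when day 10 replicate 1 or 3, or any 1 of the day 28 arrays, was omitted (adjusted p = 0.102 to 0.296). The second ended on omission of day 10 replicate 1 or 3, or of day 28 replicate 1 or 2 (adjusted p = 0.123 to 0.214).

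Macrophage and adipocyte markers each moved with Ptger3 in part of the arrays. The mean of the 15 macrophage markers was 6.85, 7.47 and 6.60 on day 10 of the labelled wild type and 5.96, 8.82 and 5.48 on day 10 of the labelled knockout, again highest in replicate 2. On day 28 it was 8.65, 10.28 and 7.07 in the labelled knockout, the same order as Ptger3, but 7.91, 8.29 and 8.90 in the labelled wild type, where Ptger3 was lowest in replicate 3. The adipocyte list mean in the labelled knockout was 5.13, 6.70 and 5.77 on day 10 and 8.14, 8.42 and 8.07 on day 28. Both times this was the order of Ptger3. In the labelled wild type it was 8.71, 8.66 and 6.82 on day 10 and 9.48, 9.40 and 9.67 on day 28. Neither was the order of Ptger3. The part of either cell type in the Ptger3 values was not tested. The genes most like Ptger3 over the 24 arrays were Pi16 (r = 0.96), the angiotensin-converting enzyme gene Ace (0.95), Selenbp1 (0.95) and Marco (0.95), a scavenger receptor of macrophages. All 4 were picked for this likeness on the same arrays, so a rise by day 28 follows from the choice and is no separate result. Its size was 2.11, 2.51, 2.55 and 4.78 in the labelled wild type and 1.34, 2.15, 1.69 and 4.32 in the labelled knockout. For Ptgfr the most alike, each at r = 0.91, were Aldh1l1, an enzyme of folate metabolism, Sod3, an extracellular superoxide dismutase, Olfml2b, and Pdgfra, a receptor for platelet-derived growth factor. Their rise by day 28 likewise follows from the choice. It was 2.59, 3.50, 1.92 and 2.73 in the labelled wild type and 1.66, 2.77, 1.55 and 2.54 in the labelled knockout.

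Ptger2, the EP2 receptor gene, was at the lower end of what these arrays resolve. It reached the array median on 4 of the 24 arrays, 2 of them from day 28 of the labelled knockout, without which it would have failed the filter of 3 arrays, and its values lay between 3.84 and 5.30. On day 28 it read 3.84, 4.20 and 4.86 in the labelled wild type and 4.90, 5.30 and 4.02 in the labelled knockout, against 3.92, 4.20 and 3.87 and 3.96, 3.99 and 4.26 on day 2. Days 2 and 28 overlapped in both. Ptger2 was thus tested because of the group in which it was high, and its difference of 0.67 in the labelled knockout, which passed narrowly, is given as a description (95% interval 0.12 to 1.22, limma adjusted p = 0.0495). Of the 6 omissions of a single array it survived 1, that of day 28 replicate 3 (adjusted p = 0.00224). After the other 5 the adjusted p was 0.0579 to 0.279. The labelled wild type differed by 0.30 (-0.24 to 0.85). A change at values this low has an uncertain size.

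Between consecutive days the 8 genes were called as follows. From day 5 to day 10, Ptger3 rose (1.57, limma adjusted p = 0.0246) and Ptgs2 fell in the labelled wild type, where 10.5% of all tested genes were called (6.02% up, 4.46% down), and Ptgs2 alone fell in the labelled knockout (4.76%, 2.58% up and 2.18% down). Omission of day 5 replicate 1 or 3, or of day 10 replicate 2, ended that Ptger3 call (adjusted p = 0.0866 to 0.161). From day 10 to day 28, Ptger3 and Ptger4 rose in the labelled wild type (1.02% of all tested genes, 0.94% up and 0.0806% down) and Ptger3 in the labelled knockout (1.65%, 1.32% up and 0.329% down), with the limits given above. From day 5 to day 28, Ptger3, Ptger4 and Ptgfr rose and Ptgs2 fell in both (24.6% of all tested genes in each, 13.8% up and 10.8% down, and 13% up and 11.7% down). Ptger3 differed there by 3.38 and 2.75 (adjusted p = 1.36e-05 and 0.000175).

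The other genes of the pathway are read against the 38.8% (labelled wild type) and 38% (labelled knockout) of all tested genes that were called from day 2 to day 28. Of 18 tested genes for arachidonic acid release and prostanoid synthesis, 6 rose and 1 fell by day 28 in the labelled wild type, with a median change of 0.26, and 7 rose and 2 fell in the labelled knockout, with a median of 0.18. The share called in the labelled wild type was that of all genes. Pla2g4a, the cytosolic phospholipase A2 that feeds Ptgs2, was the largest fall. It read 9.65, 9.71 and 9.49 on day 2 and 8.02, 7.98 and 7.69 on day 28 of the labelled wild type, and 9.77, 9.44 and 9.88 against 8.04, 8.55 and 8.05 in the labelled knockout. The groups did not overlap, and the differences were -1.72 (95% interval -2.22 to -1.22, limma adjusted p = 1.23e-05) and -1.49 (-1.98 to -0.99, adjusted p = 7.15e-05). It was also lower on day 10 (-1.11 and -1.37, adjusted p = 0.00137 and 0.000367), the day from which Ptgs2 was low.

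Hpgds, the hematopoietic prostaglandin D synthase, had the largest rise of the list. It read 3.96, 4.01 and 4.57 on day 2 and 6.94, 7.21 and 8.06 on day 28 of the labelled wild type, and 3.94, 4.36 and 4.03 against 8.18, 10.00 and 5.94 in the labelled knockout. All day 2 arrays lay below their array medians. The differences were 3.22 (95% interval 1.36 to 5.08, limma adjusted p = 0.00691) and 3.93 (2.07 to 5.79, adjusted p = 0.00162). Within each day 28 group its order over the replicates was that of the macrophage markers (7.91, 8.29 and 8.90, and 8.65, 10.28 and 7.07). The thromboxane synthase gene Tbxas1 had this order too, at 5.01, 5.39 and 5.86 and at 5.80, 6.90 and 4.97, and rose by 0.96 and 1.21 (adjusted p = 0.0382 and 0.0106). Its call in the labelled knockout was lost without replicate 2 of day 28 (0.71, adjusted p = 0.0919). The part of macrophages in these 2 genes was not tested. Of the other enzymes, Cbr1, a carbonyl reductase that acts on prostaglandin E2, rose by 0.97 and 0.91, and the phospholipase gene Plaat3 by 1.05 and 0.75 (adjusted p = 0.00142 to 0.0166). Akr1c18 rose in the labelled wild type (1.27, adjusted p = 0.0351), mainly through replicate 1 of day 28 at 6.14 (5.03 and 3.59 in the others), and was not called without it (0.66, adjusted p = 0.261). Leaving out replicate 2 of day 28 or any 1 of the day 2 arrays also ended that call (adjusted p = 0.0614 to 0.0996). The day 2 mean of Akr1c18 there was 3.65 ± 0.21 (SD, n = 3), below the array medians of 4.55 to 4.72. The size of its rise is thus uncertain.

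Of 8 genes for the breakdown and transport of prostaglandins, 3 rose and 2 fell by day 28 in the labelled wild type (median -0.01), and 2 rose and 2 fell in the labelled knockout (median -0.03), where 38.8% and 38% of all tested genes were called. Hpgd encodes the dehydrogenase that begins the inactivation of prostaglandins. It read 4.75, 5.19 and 6.31 on day 2, 5.10, 5.88 and 7.74 on day 5, 7.36, 7.13 and 8.40 on day 10, and 8.53, 9.07 and 10.23 on day 28 of the labelled wild type. In the labelled knockout it read 4.61, 4.51 and 5.72, then 5.19, 6.40 and 7.61, then 8.78, 7.65 and 8.20, and then 10.20, 10.66 and 10.01. All day 28 arrays stood above all earlier arrays of their genotype. The difference from day 2 was 3.86 (95% interval 2.53 to 5.19, limma adjusted p = 8.18e-05) and 5.35 (4.01 to 6.68, adjusted p = 3.21e-06). Ptgr2, a reductase of the next step, rose by 1.56 and 1.31 (adjusted p = 5.89e-05 and 0.000359).

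Slco2a1 and Slco4a1 were the transporter genes that fell, while Slco3a1 and Abcc4 were not called. Slco2a1, the main prostaglandin uptake transporter, read 8.69, 9.02 and 9.09 on day 2 and 8.06, 8.22 and 6.16 on day 28 of the labelled wild type, and 7.92, 8.88 and 9.19 against 7.14, 7.78 and 5.87 in the labelled knockout. Replicate 3 of day 28 was the lowest in both. The difference of -1.45 in the labelled wild type (limma adjusted p = 0.0487) was lost without that array (-0.79, adjusted p = 0.301) or without any 1 of the day 2 arrays (adjusted p = 0.0672 to 0.116). That of -1.73 in the labelled knockout (adjusted p = 0.0203) ended when day 28 replicate 3 was omitted (-1.20, adjusted p = 0.128), or day 2 replicate 2 or 3 (adjusted p = 0.0610 and 0.0904). Slco4a1 fell by -0.83 and -0.71 (adjusted p = 0.00205 and 0.00692), at values below the array median on all 12 labelled wild-type arrays. It thus entered the test only through labelled knockout arrays, whose group mean was highest on day 2 (4.66, against 3.95 on day 28). Its falls, which are among the counts above, are therefore given as a description, and their size is uncertain.

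**Figure D4:**
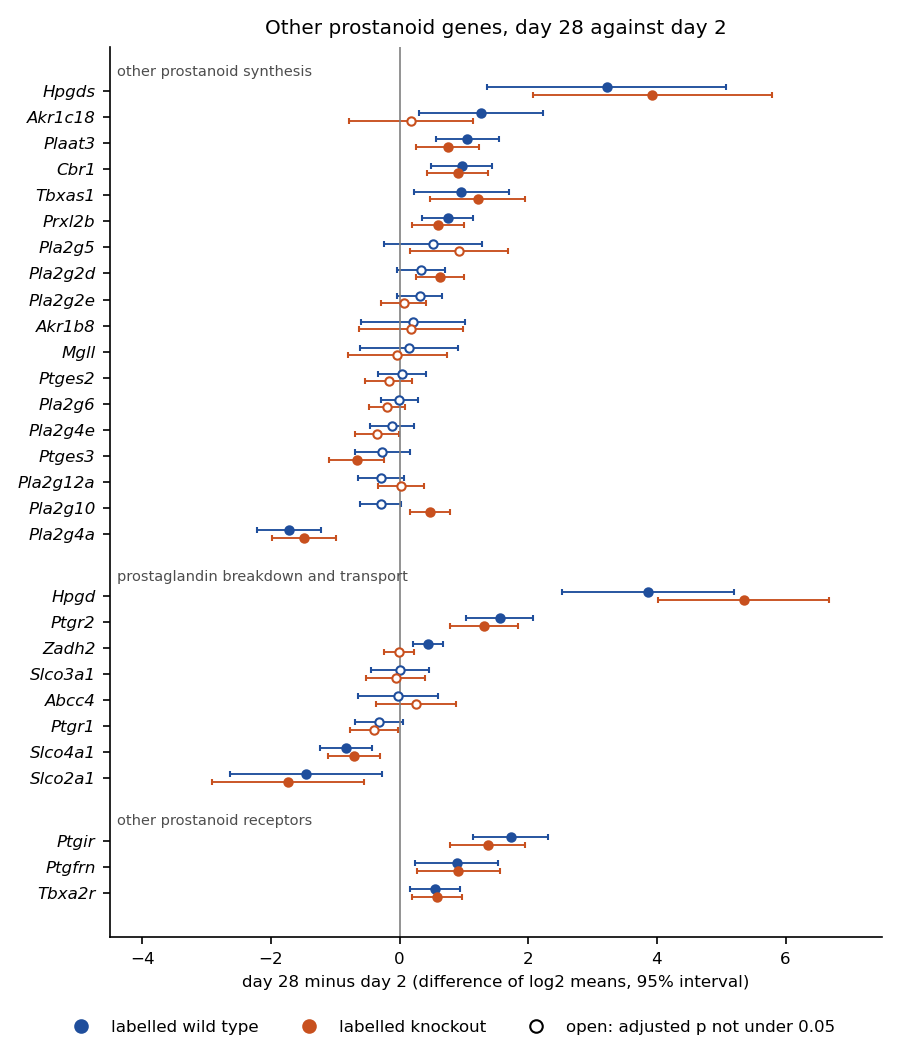
Change from day 2 to day 28 of the other tested genes of prostanoid synthesis, breakdown, transport and reception, as the difference of log2 means with its 95% interval from limma; filled points have an adjusted p under 0.05. Hpgds and Hpgd lie farthest to the right in both labelled genotypes, at 3.22 to 5.35, and Pla2g4a and Slco2a1 farthest to the left.

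The 3 tested genes of other prostanoid receptors rose by day 28 in both labelled genotypes, where 19.6% and 19.4% of all tested genes rose. The prostacyclin receptor gene Ptgir read 5.31, 5.39 and 4.92 on day 2 and 7.23, 6.95 and 6.61 on day 28 of the labelled wild type, and 5.46, 5.45 and 5.19 against 6.82, 7.17 and 6.21 in the labelled knockout. It rose by 1.73 (95% interval 1.15 to 2.30, limma adjusted p = 6.14e-05) and 1.37 (0.79 to 1.95, adjusted p = 0.000630). Ptgfrn, a membrane protein that binds the prostaglandin F receptor, rose by 0.89 and 0.91, and the thromboxane receptor gene Tbxa2r by 0.55 and 0.58 (adjusted p = 0.0180 to 0.0274). Omitting a single array often ended these smaller rises (adjusted p = 0.0502 to 0.129). For Ptgfrn these arrays were all but day 28 replicate 2 in the labelled wild type, and day 2 replicates 2 and 3 and day 28 replicates 1 and 3 in the labelled knockout. For Tbxa2r they were day 2 replicate 3 and day 28 replicates 1 and 3 in the labelled wild type, and day 2 replicate 3 and day 28 replicate 1 in the labelled knockout.

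In the leukotriene branch, which uses the same arachidonic acid, 2 of 5 tested genes rose by day 28 in the labelled wild type and 2 rose and 1 fell in the labelled knockout. Of all tested genes, 38.8% and 38% were called. Alox5ap, the 5-lipoxygenase activating protein, read 8.51, 9.09 and 9.56 on day 28 of the labelled wild type and 9.16, 11.00 and 7.39 in the labelled knockout, against 5.27 to 6.36 over the 6 day 2 arrays. It rose by 3.35 and 3.44 (limma adjusted p = 0.00139 and 0.00115), and the leukotriene C4 synthase gene Ltc4s by 1.72 and 1.32 (adjusted p = 5.75e-05 and 0.000810). Their order over the day 28 replicates was again that of the macrophage markers, whose part was not tested. For Ltc4s in the labelled wild type that order rests on a very small spread (6.76 ± 0.06, SD, n = 3). Lta4h fell by -0.37 in the labelled knockout (adjusted p = 0.0438), a call ended by omitting day 2 replicate 1 or 3, or day 28 replicate 2 or 3 (adjusted p = 0.0690 to 0.226).

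Genes known to be induced by cAMP did not move one way. Of 17 tested besides Ptgs2, 1 rose and 5 fell by day 28 in the labelled wild type, and 2 rose and 4 fell in the labelled knockout (medians 0.12 and -0.04). Among all tested genes 19.6% rose and 19.2% fell in the labelled wild type, and 19.4% and 18.6% in the labelled knockout. The share of this list that was called was near that of all genes. Rgs2, a regulator of G protein signalling, rose by 3.52 and 3.02 (limma adjusted p = 1.22e-07 and 1.00e-06), from 5.21, 5.52 and 5.42 to 8.90, 8.68 and 9.13 in the labelled wild type and from 5.43, 5.65 and 5.37 to 8.56, 8.40 and 8.55 in the labelled knockout. The phosphatase gene Dusp1 fell by -1.94 and -1.93, the cytokine gene Lif by -1.94 and -1.67, and Vegfa by -1.46 and -1.70 (adjusted p = 1.17e-06 to 0.00110).

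No gene of the 8 was called between the labelled genotypes, whose labels the Arrb2 signal did not bear out. In limma, 0 of 8 passed on days 2, 5, 10 and 28 and over the mean of the days. Among all tested genes 0.00672%, 0.00672%, 0.0336% and 0.228% were called on the 4 days and 0.188% over the mean. At an unadjusted p under 0.05 the counts were 0, 1, 1 and 1 of 8 on the 4 days and 2 over the mean, beside 212, 396, 1152, 850 and 1397 of all 14892 tested genes. The change from day 2 to days 5, 10 and 28 did not differ past the threshold either (0 of 8 each time, where 0%, 0% and 0.00672% of all genes were called). At an unadjusted p under 0.05 there were 0 of 8 each time, beside 184, 572 and 410 of all tested genes.

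Ptgfr had the smallest unadjusted p of the 8 genes. It was lower in the labelled knockout by -0.69 on day 5 (95% interval -1.18 to -0.20, limma adjusted p = 0.998) and by -0.63 on day 28 (-1.12 to -0.14, adjusted p = 0.646). The difference was -0.09 on day 2 and -0.41 on day 10. Averaged across days it was -0.45 (-0.70 to -0.21, unadjusted p = 0.000978, adjusted p = 0.140), a test that treats the days as independent.

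Ptger3 was lower by -0.77 on day 10 and -0.86 on day 28 of the labelled knockout, with intervals that include 0 (-1.68 to 0.14 and -1.77 to 0.05). Ptger4 differed by -0.37 on day 28 (-0.85 to 0.11). Ptgds was higher by 0.30 on day 10 (0.06 to 0.53, limma adjusted p = 0.544). For Ptgs2 the differences were -0.15, 0.03, 0.97 and 0.10 on days 2, 5, 10 and 28, and the interval of day 10 (-0.26 to 2.20) allows a level up to several-fold higher. At 3 arrays a group, intervals for the less variable Ptges lay within 0.60 of 0 on each day. Adipocyte markers were lower in the labelled knockout on day 10 (list median -2.26, 2 of 11 called, 0 of 11 above 0) and on day 28 (list median -1.37, 2 of 11 called, 0 of 11 above 0). Among all tested genes 0.0336% and 0.228% were called on these days, with medians of 0.03 and 0.01. The part of adipocytes in the values of the prostaglandin genes was not tested.

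**Figure D5:**
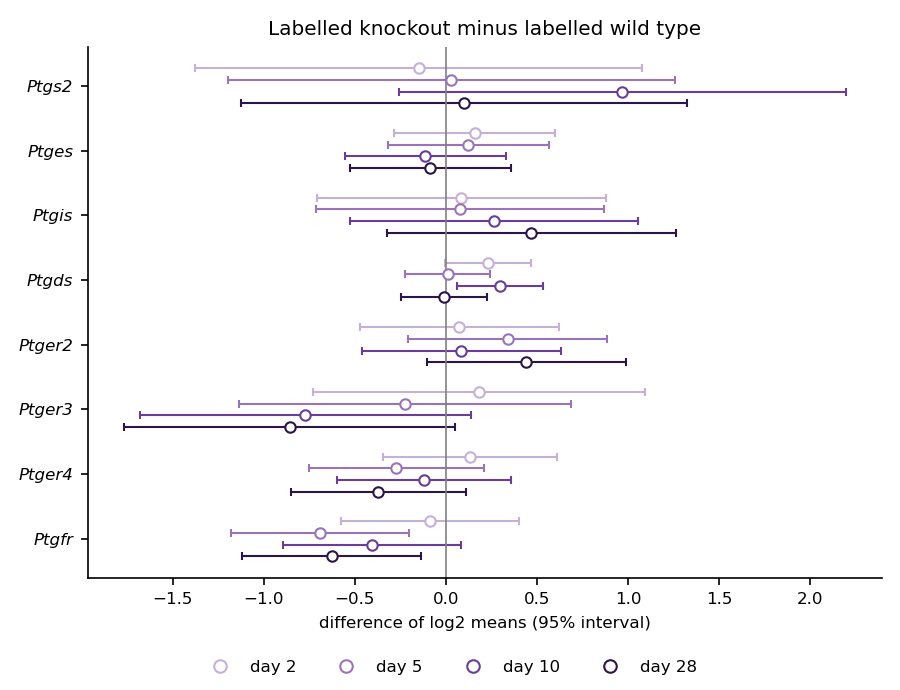
Labelled knockout minus labelled wild type for each of the 8 genes on days 2, 5, 10 and 28, as the difference of log2 means with its 95% interval from limma. All points are open, since none had an adjusted p under 0.05; Ptgfr lies below 0 on every day, from -0.09 to -0.69.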

How the data were processed

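Total RNA (100 ng) was measured on 24 Affymetrix Mouse Gene 2.0 ST arrays. Per the submitters' processing notes, the deposited log2 values were made with RMA in Affymetrix Expression Console; their settings and library files: not given in the sources used here. Of 41345 transcript clusters, 25335 had a listed gene, 23521 of them a single symbol and 1814 several, and 16010 had none. Symbols were updated through the GRCm38.p6 gene table (23328 matched), and each gene was represented by its cluster with the highest mean (22180 genes). A gene was tested if at least 3 of 24 arrays reached their own array median, which left 14892. One limma fit (version 3.58.1, R 4.3.3) with a mean per labelled genotype and day gave all contrasts, with Benjamini-Hochberg adjustment over the 14892 genes and a threshold of 0.05. The number of arrays limits the precision.

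The members, gene lists and tests were chosen with earlier results of these data known. All 8 genes are described. Of each other list, up to 4 genes with the largest change past the threshold in a contrast were named, beside their values in the other labelled genotype. For the 3 genes whose group means ranged most, the 4 tested genes with the highest Pearson correlation over the 24 arrays were named, leaving out predicted or unnamed symbols. Levels of different genes were not compared. Same-numbered replicates deviated together (lowest correlation over 0.1) in 7 of 16 contrasts checked: the pairing comes from the data and is not stated by the labels. Alternatives covered the filter, the choice of cluster, median-centring, the variance model, array weights, the groups fitted, the replicate block and leaving out each array.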

Additional observations from a re-analysis of the deposited data

How the results depend on the processing

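All 30 differences called for the 8 genes kept their sign under every alternative run; the strict filter gave no value for Ptger2. The number of the 8 genes called moved by over 1.5 times as follows, with causes not tested beyond the samples or genes an alternative removes. Between days 5 and 2 of the labelled wild type, 1 call became 2 with the replicate number as a fixed or random block. Between days 10 and 5 there, fitting those groups alone left 1 of 2. Between days 28 and 10 there, 2 calls became 1 with no filter, the stricter filter or those groups alone, and 0 with median-centred arrays. In the labelled knockout, the 1 call between days 10 and 5 became 2 with array weights and 0 with those groups alone. Its 1 call between days 28 and 10 became 0 with no filter, the mean of clusters, median-centred arrays, array weights or those groups alone, and 2 with either block. Leaving out 1 array gave 1 to 2 calls for day 5 against day 2, 2 to 3 for day 10, 4 to 5 for day 28, 1 to 2 for day 10 against day 5, 4 for day 28 against day 5 and 0 to 2 for day 28 against day 10 in the labelled wild type. In the labelled knockout it gave 0 to 1, 2, 4 to 5, 0 to 1, 2 to 5 and 0 to 2 in the same order, and 0 between labelled genotypes.

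The call for Ptger2 was also lost with no filter (adjusted p = 0.0670), median-centred arrays (0.0790), the trended robust variance (0.0506), array weights (0.0550) and those groups alone (0.144). In contrasts where same-numbered replicates did not clearly pair, the replicate block also called Ptges on days 10 and 28 against day 2 in the labelled wild type (limma adjusted p = 0.0239 and 0.00545), Ptgis on day 28 against day 5 in the labelled knockout (0.00693) and Arrb2 between labelled genotypes on day 10 (0.0455), and it lost Slco2a1 on day 28 of the labelled wild type (0.0533). With the block, no other call described for the 8 genes changed beyond those printed beside their results. Array weights called Ptges on day 28 against day 2 of the labelled wild type (limma adjusted p = 0.0221). In the labelled knockout they called Ptgis on day 28 against days 2 and 5 (0.00761 and 0.00468) and Ptgds on day 10 against day 5 (0.0394). The random block called the same Ptges difference (0.0218) and the same 2 of Ptgis (0.0274 and 0.0266). Over all tested genes, the call count moved most for day 28 against day 10 of the labelled knockout, from 245 to 12 with those groups alone and 704 with the block, and for day 10 against day 5 there, from 709 to 53 and 1198. With those groups alone, the counts fell from 412 to 49 (day 5 against day 2 of the labelled knockout), 826 to 463 (the same in the labelled wild type), 1560 to 898 (day 10 against day 5 there), 3670 to 2171 (day 28 against day 5 of the labelled knockout) and 34 to 22 (labelled genotypes on day 28). Array weights raised them to 911, 2407 and 448 for day 5 against day 2 and day 10 against day 5 of the labelled knockout and day 28 against day 10 of the labelled wild type (main count 152), and to 96 and 104 between labelled genotypes on day 28 and over the mean of days (main count 28), where the fixed block gave 51 and the random block 3. On day 10 the 5 genes called between labelled genotypes became 38 with array weights, 31 with the block and 1 with those groups alone, and on day 28 the stricter filter left 21. The block, fixed or random, also raised the count for day 5 against day 2 to 1366 or 1241 in the labelled wild type and 695 or 654 in the labelled knockout, and for day 28 against day 10 of the labelled wild type to 267 or 240. Low signal limits Ptger2 and the early values of Ptger3.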
